A study of Mus musculus with 12 samples.

Results

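10 genes that carry glucose into male germ cells and break it down are described here: the glucose transporter Slc2a3, the hexokinase Hk1, the aldolases Aldoart1 and Aldoart2, and the later enzymes Gapdhs, Pgk2, Pgam2, Eno4, Ldhc and Ldhal6b. They were picked by gene symbol as the germ cell isozymes of glycolysis, with Hk1 and Slc2a3 added, and all 10 had a row among the 55291 genes of the deposited count table. 9 of the 10 had enough counts to be tested, and Ldhal6b had no count in any library. The libraries came from mouse round spermatids (RS), which are haploid and follow meiosis, and from spermatocytes at MII, the second meiotic division. In knockout (KO) mice of the genotype Pan2flox/-;Stra8-Cre, 1 Pan2 allele was deleted and the other was floxed, with Cre driven by the Stra8 promoter, which switches on as germ cells begin meiosis, so that cells outside the germ line keep a floxed allele. Wildtype (WT) mice were labelled only as such, and the labels used here give no age or strain. Each of the 4 groups (KO RS, WT RS, KO MII and WT MII) had 3 Smart-seq2 libraries, 12 in all, made from polyadenylated RNA of cells sorted by FACS. Since reverse transcription was primed on poly(A) tails, a change in tail length can change how well an mRNA is captured.

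Glycolysis splits glucose into pyruvate and yields ATP without oxygen, and lactate dehydrogenase then turns pyruvate into lactate. Mouse male germ cells replace several of the body's glycolytic enzymes with isozymes of their own, and in sperm many of these enzymes are bound along the flagellum, where they supply ATP for swimming. PAN2 carries the active site of a deadenylase, a complex that trims poly(A) tails of mRNAs, and many spermatid mRNAs are made early and stored before they are translated.

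The total count per library lay between 13781370 and 38652066. No label says whether libraries of a group stem from separate animals, so p-values reflect library-to-library spread alone, which may be technical. Pan2 was at 5.57, 7.10 and 5.08 CPM (counts as a rate of the library's total, with totals scaled by the TMM method) in KO MII and at 12.9, 17.1 and 13.3 CPM in WT MII. The libraries labelled KO RS had 22.6, 4.73 and 3.52 CPM of it, against 9.93, 8.13 and 12.95 CPM in WT RS. The difference in Pan2 passed at neither stage (log2 fold change -1.28 in MII, edgeR adjusted p = 0.227, and 0.00312 in RS, 0.998). The library labelled KO RS replicate 1 went against its label by Pan2, and with it left out the RS difference was -1.32 (0.00782). The genotype results in RS are therefore also given with that library left out. Pan2 counts cover all of its exons, and the labels do not say which part is deleted. Markers of round spermatids (12 genes) and of meiotic division (10 genes) were detected in every group, so the 2 sorted stages were not separated by the presence of either. 13 of 14 Sertoli markers passed the filter on low counts, with Amh at 0 throughout, and their summed level was 43.1 to 288 CPM in KO RS (288 in replicate 1), 6.11 to 7.30 CPM in WT RS, 95.6 to 409 CPM in KO MII (409 in replicate 1) and 24.7 to 40.4 CPM in WT MII. Summed levels of the 10 Leydig markers were 1.69 to 12.3 CPM in KO RS, 1.09 to 2.00 CPM in WT RS, 162 to 312 CPM in KO MII and 60.4 to 75.6 CPM in WT MII.

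4 of the 10 genes have a single exon in the deposited annotation: Pgk2 (chr17:40207015-40208640, minus strand), Aldoart1 (chr4:72850583-72852634, minus), Aldoart2 (chr12:55565239-55566896, plus) and Ldhal6b (chr17:5417323-5418767, minus; all mm10). The other 6 are spliced: Slc2a3 (chr6:122727809-122801640, minus, 14 merged exons), Hk1 (chr10:62268855-62379908, minus, 28), Gapdhs (chr7:30729775-30743681, minus, 12), Pgam2 (chr11:5801640-5803733, minus, 3), Eno4 (chr19:58943425-58971421, plus, 14) and Ldhc (chr7:46861203-46878142, plus, 10). Hk1 is the only one of them on the chromosome of Pan2, 65.9 Mb away. Counts cover a whole gene, so the germ cell transcripts of Hk1 were not told apart from its other forms.

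Aldoart1 and Aldoart2 are retrogenes of Aldoa, intronless copies made from its mRNA, and are the pair whose reads could most easily be confused with those of the parent. Over aligned coding bases, Aldoart1 was 93.9% identical to Aldoa, Aldoart2 was 91.7% identical to Aldoa, and the 2 retrogenes were 89.1% identical to each other. A stretch of 90 coding bases from each mouse reference transcript (GENCODE M21, GRCm38), from the coding base given, shows how the 3 can be told apart, with capitals marking bases that differ from Aldoa.
Aldoa, chromosome 7, coding bases 163 to 252: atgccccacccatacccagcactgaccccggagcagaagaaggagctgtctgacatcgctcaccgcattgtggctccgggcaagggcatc
Aldoart1, chromosome 4, coding bases 166 to 255: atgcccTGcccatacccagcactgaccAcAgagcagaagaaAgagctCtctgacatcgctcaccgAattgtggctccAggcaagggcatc
Aldoart2, chromosome 12, coding bases 1 to 90: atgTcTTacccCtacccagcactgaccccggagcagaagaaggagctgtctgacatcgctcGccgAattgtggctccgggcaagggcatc
Aldoart1 differed from Aldoa at 8 of these bases and Aldoart2 at 6. Across their whole transcripts none of the 150-base windows of Aldoart1 (1903 windows) or of Aldoart2 (1509) occurred in another gene's exons, and the same held for Slc2a3, Gapdhs, Pgk2, Pgam2 and Ldhc. The window length was a choice and no read length is given here. Shorter stretches can be shared, as the lines of Aldoa and Aldoart2 show, so reads shorter than a window may not be separable. The share of such windows found in another gene was 0.0829% in Hk1 and 0.629% in Eno4. There the exons of Hk1os and Hspa12a overlap on the opposite strand, over 157 and 166 bases. Exons of Gapdhs likewise overlap those of Tmem147os on the opposite strand, over 162 bases, though no whole window was shared. With no strand setting given, reads from these stretches carry the same limit in all 3 genes. Genes other than the aldolases were further from a related isozyme. Coding identities were 79.3% for Pgk2 and Pgk1, 74.7% for Pgam2 and Pgam1, 73.7% for Ldhc and Ldha, 71.5% for Hk1 and Hk2, 70.4% for Gapdhs and Gapdh, and 57.7% for Eno4 and Eno1.

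Ldhal6b, a germ cell lactate dehydrogenase-like gene, was listed at 0 counts in all 12 libraries, and this is no measure of its level. All 1445 of its exon bases lie under exons of Gm29050 on the opposite strand, so every 150-base window of it is shared with that gene. Gm29050 had 24 to 84 counts per library. The sources used here do not give the strand setting of the counting, and reads from the pair could not be told apart here.

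Per kilobase of exon, Ldhc, the germ cell lactate dehydrogenase, stood far above the rest in every group, at 5600 ± 120 CPM per kb in KO RS, 4930 ± 170 in WT RS, 5420 ± 168 in KO MII and 5060 ± 66.2 in WT MII (mean ± SD, n = 3 each). Ldhc alone took 0.760% to 0.886% of all counts in a library and had the highest count of any gene in 5 libraries and the second highest in 7. The 10 genes together took 1.11% to 1.25%. Pgam2 came next in each group (1240 to 1340 CPM per kb as group means), then Pgk2 (544 to 704), Aldoart2 (144 to 346) and Gapdhs (139 to 172). The lower places differed between groups. Slc2a3 was in sixth place in both MII groups, at 76.7 ± 9.16 CPM per kb in KO MII and 106 ± 19.7 in WT MII, and was eighth in KO RS at 21.8 ± 2.49 and seventh in WT RS at 60.8 ± 18.7. Neighbours in these orders overlapped in WT MII for Aldoart2 with Gapdhs and Gapdhs with Slc2a3, in WT RS for Aldoart1 with Slc2a3, and in KO RS for Slc2a3 with Hk1. The orders depend on the length of all exons merged, which was 7.24 kb for Slc2a3 and 8.53 kb for Hk1. By CPM alone, Slc2a3 in MII (mean 555.9 in KO and 764.9 in WT) stood above Aldoart2 (381.5 and 238.1) and Gapdhs (248.3 and 223.5).

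**Figure D1:**
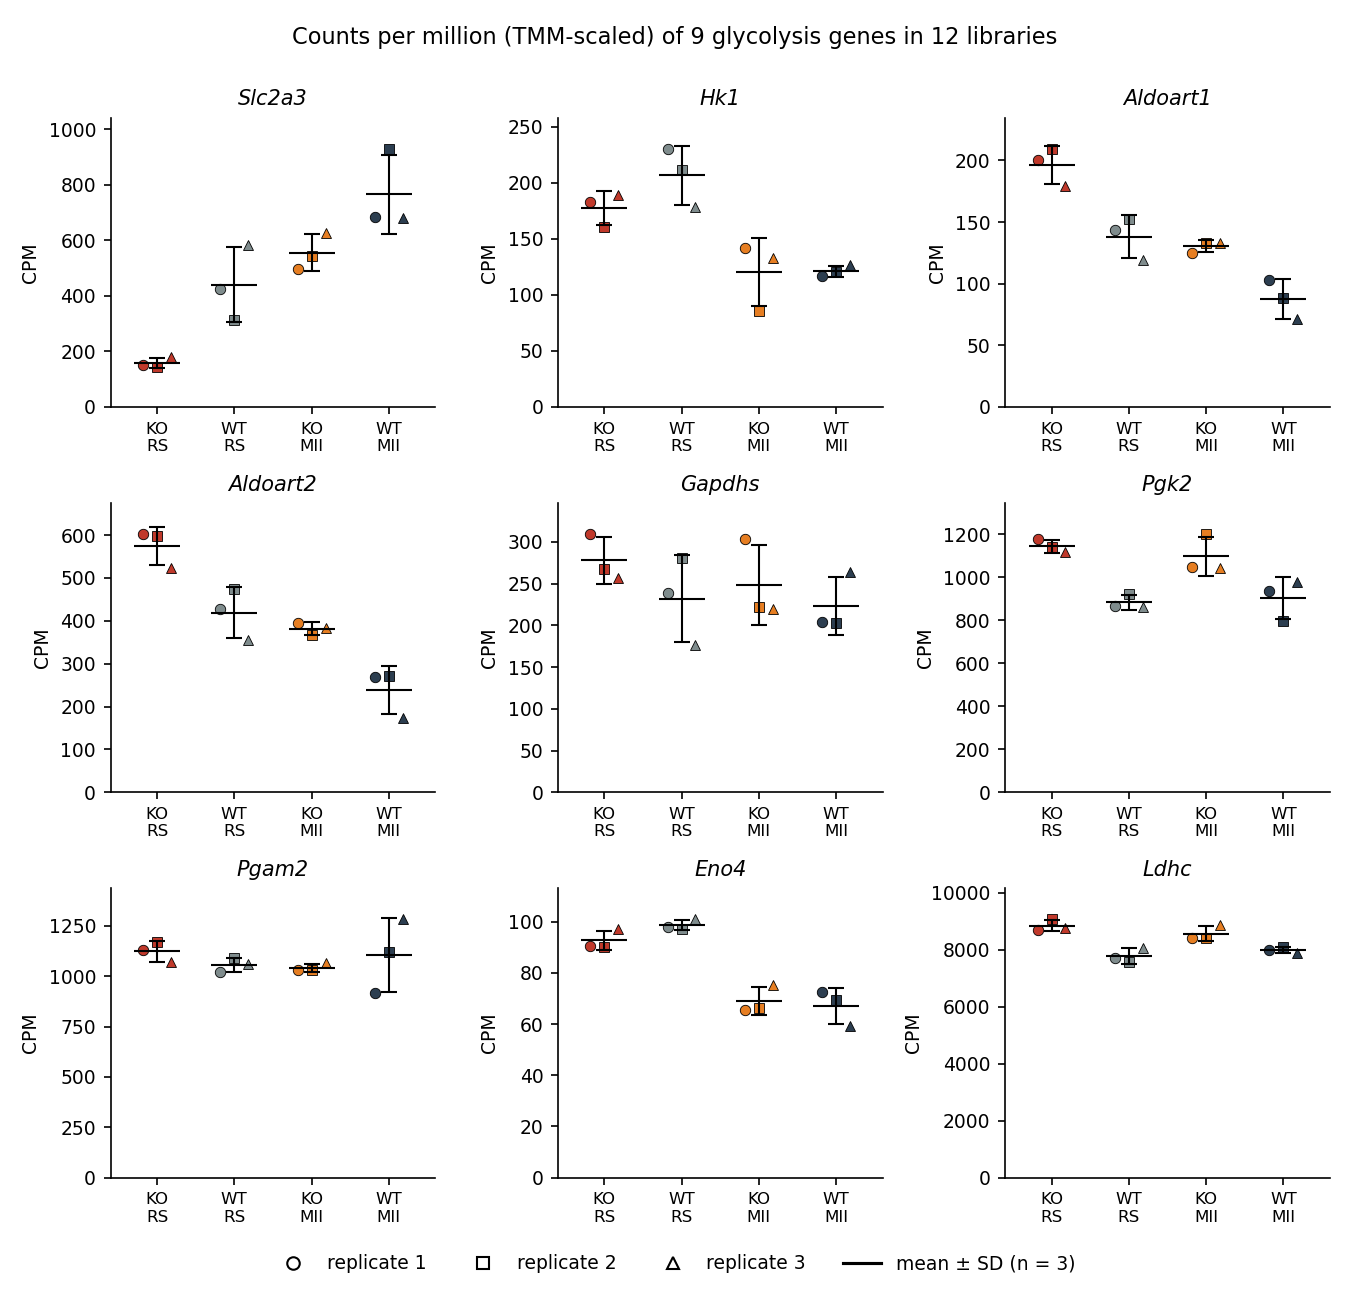
Level of each of 9 germ cell glycolysis genes (vertical axis, CPM with TMM-scaled library sizes, from 0, a scale per gene) in the 4 groups (horizontal axis), with 1 point per library and lines at the mean ± SD of 3 libraries. Slc2a3 lies lowest in the 3 KO RS libraries (145 to 178 CPM), Aldoart1 and Aldoart2 lie lowest in WT MII, and Pgam2 and Gapdhs overlap between genotypes at both stages.

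Setting KO beside WT libraries asked how mRNAs of the pathway differ between the genotypes. In RS, Slc2a3 fell to about 0.358 of its WT level while the first aldolase retrogene, Aldoart1, and the phosphoglycerate kinase Pgk2 rose by 1.42-fold and 1.30-fold. In MII, Aldoart1 and Aldoart2 rose by 1.49-fold and 1.60-fold and no gene of the 10 fell past the threshold. In RS, 3 of the 9 tested genes passed (2 higher, 1 lower) at an adjusted p under 0.05 in edgeR's quasi-likelihood test, against 13.4% of all 21291 genes (6.06% higher, 7.39% lower). Of all calls in RS 45.1% were higher, and 34.2% with total-count scaling. In MII, 2 passed (both higher), against 3.68% of all genes (1.83% higher, 1.86% lower). The median log2 fold change of the 9 was 0.185 in RS and 0.0975 in MII, beside -0.0112 and -0.00532 over all genes tested. The counts rest on single libraries: without the library labelled KO RS replicate 1, 1 of the 9 passed in RS, against 4.95% of all genes, and the median of the 9 was 0.173. 1 passed also without KO RS replicate 2, WT RS replicate 1 or WT RS replicate 3. In MII none passed without any one of the KO MII replicates 1, 2 and 3 or WT MII replicate 3, and 1 passed without WT MII replicate 2, WT RS replicate 1 or KO RS replicate 2. Calls over all genes also changed in such fits. With a library left out they ranged from 147 to 976 in MII (784 with every library) and from 1080 to 3573 in RS (2863).

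**Figure D2:**
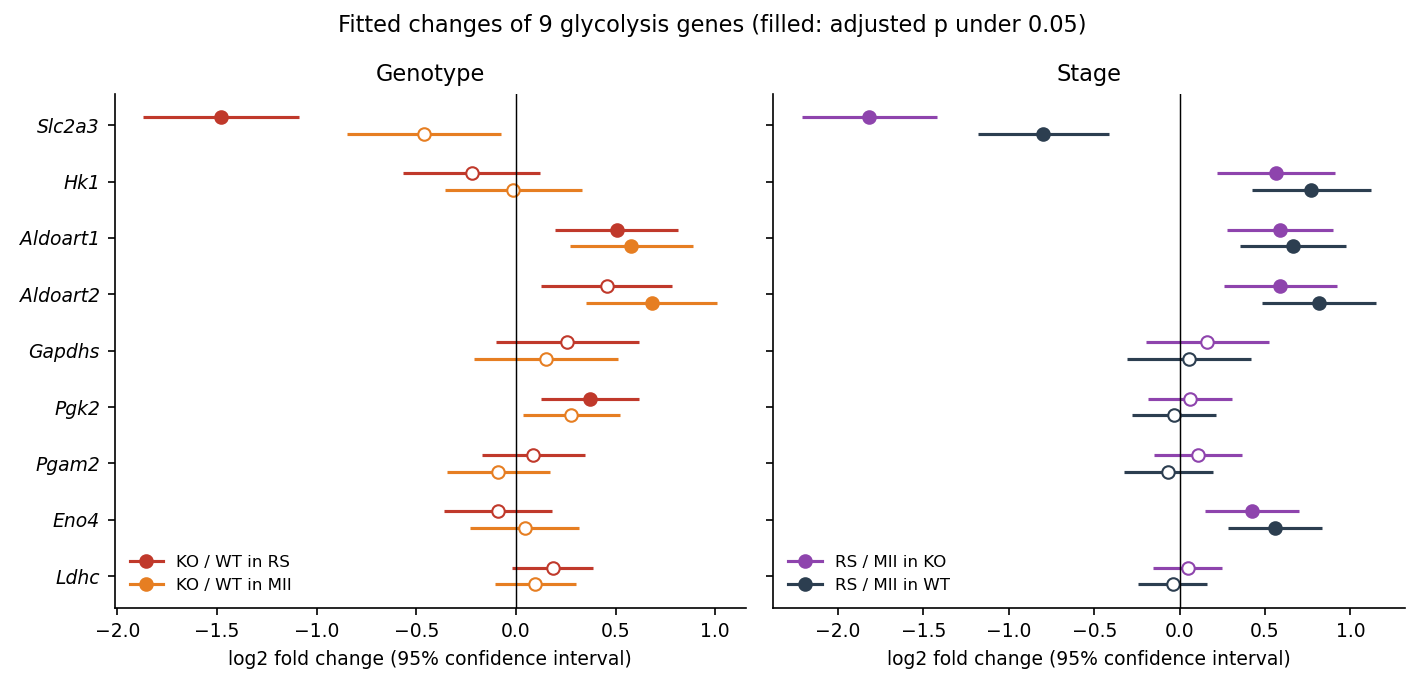
Fitted log2 fold changes with their 95% confidence intervals (horizontal axis) of 9 germ cell glycolysis genes (vertical axis), KO over WT on the left and RS over MII on the right, with filled points for an adjusted p under 0.05. Slc2a3 stands apart on the left of both panels, at -1.48 for KO over WT in RS and -1.82 for RS over MII in KO, while Gapdhs, Pgam2 and Ldhc have open points throughout.

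Slc2a3 encodes GLUT3, a high-affinity glucose transporter of the plasma membrane of sperm and neurons. In RS it was at 150, 145 and 178 CPM in KO and at 423, 314 and 583 CPM in WT. Every KO library was below every WT library, and the WT libraries spread more widely than the KO libraries. The log2 fold change was -1.48 (SE 0.188, 95% interval -1.87 to -1.09), a level 2.79-fold lower in KO, with an edgeR adjusted p of 6.69e-05 and the 58th smallest p of 21291 genes. It was -1.45 (adjusted p = 0.000685) with the library labelled KO RS replicate 1 left out, which sat among the KO values for Slc2a3 although it did not for Pan2. The call held in all 20 alternatives, in which the log2 fold change lay between -1.67 and -1.24 when a library was left out.

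In MII, Slc2a3 was at 497, 543 and 628 CPM in KO and at 685, 930 and 680 CPM in WT. The groups did not overlap, but the highest KO library and the lowest WT library lay close. The log2 fold change of -0.46 (SE 0.184, 95% interval -0.845 to -0.0762) did not pass (edgeR adjusted p = 0.169), and it passed in none of the 20 alternatives. The KO effect differed between RS and MII by -1.02 on the log2 scale (SE 0.26, 95% interval -1.57 to -0.477), which did not pass over all genes (edgeR adjusted p = 0.577, unadjusted 0.000894). Of the 9 tested genes none passed for this difference in edgeR, DESeq2 or limma-voom, against 0.0047% of all genes in edgeR, and Slc2a3 was the 1 with an unadjusted p under 0.05.

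Marker mRNAs of germ cell stages also differed between KO RS and WT RS, some lower in KO as Slc2a3 was and some higher. Summed levels of 10 meiotic division markers, such as cyclins and Aurora kinases, were 1250 to 1480 CPM in KO RS and 1690 to 2380 CPM in WT RS, with 7 of 10 called lower, and 1660 to 2130 CPM in KO MII and 2000 to 2430 CPM in WT MII, with no call. In WT RS the library with the most Slc2a3, replicate 3, had the highest sum of these markers (2380 CPM), and the one with the least, replicate 2, had the lowest (1690 CPM). Libraries of KO MII also had the same order for both. In KO RS and WT MII the library with the most Slc2a3 had the highest sum, but the one with the least did not have the lowest. Summed levels of 12 round spermatid markers were 6140 to 7180 CPM in KO RS and 3670 to 5580 CPM in WT RS, with 7 called higher, and those of 10 elongating spermatid markers were 4790 to 5770 CPM in KO RS and 6990 to 10500 CPM in WT RS, with 5 called lower. Within WT RS the round and elongating spermatid sums were highest in replicate 2 (5580 and 10500 CPM), with the least Slc2a3. They were lowest in replicate 3 (3670 and 6990 CPM), with the most. On leaving out the library labelled KO RS replicate 1, 4 meiotic division and 5 elongating spermatid markers were called lower in RS and 3 round spermatid markers higher. Their part in the Slc2a3 result was not tested. In libraries made from many cells, fewer cells that carry an mRNA and less of it per cell cannot be told apart.

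Aldolase cleaves the 6-carbon sugar of glycolysis into a pair of 3-carbon pieces, and both retrogene products are known from mouse sperm. In MII, Aldoart1 was at 125, 133 and 133 CPM in KO and at 103, 88.1 and 71.1 CPM in WT, and Aldoart2 was at 396, 367 and 382 CPM in KO and at 270, 272 and 173 CPM in WT. No KO library overlapped a WT library for either gene, and in WT replicate 3 was the lowest for both. The log2 fold changes were 0.58 for Aldoart1 (SE 0.148, edgeR adjusted p = 0.0354) and 0.68 for Aldoart2 (SE 0.158, 0.0232). The call of Aldoart1 was lost without WT MII replicate 2 (0.0533) or 3 (0.105), without KO MII replicate 1 (0.105), 2 (0.122) or 3 (0.0882), without WT RS replicate 1 (0.0611) and without KO RS replicate 2 (0.0656), and also with total-count scaling (0.0522) and in a fit of the 6 MII libraries (0.105). That of Aldoart2 was lost without WT MII replicate 3 (0.0643), without KO MII replicate 1 (0.102), 2 (0.075) or 3 (0.0562), and in the fit of the 6 MII libraries (0.0746).

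In RS both aldolase genes were again higher in every KO library than in any WT library. Aldoart1 was at 200.2, 209.4 and 179 CPM in KO and at 143, 152 and 119 CPM in WT, 0.51 higher on the log2 scale (SE 0.147, edgeR adjusted p = 0.0288). Aldoart2 was at 602, 597 and 523 CPM in KO and at 427, 474 and 356 CPM in WT, a log2 fold change of 0.46 (SE 0.158) that did not pass (adjusted p = 0.0609) although it did in 6 of 20 alternatives, limma-voom among them (0.0435), and was at 0.42 (0.188) without KO RS replicate 1. For Aldoart1 the call was lost without WT RS replicate 1 (0.102) or 3 (0.168), without KO RS replicate 1 (0.105) or 2 (0.138), and with total-count scaling (0.0635). The KO effect in RS minus that in MII was -0.07 on the log2 scale for Aldoart1 (SE 0.208, adjusted p = 0.95) and -0.23 for Aldoart2 (SE 0.223, 0.821), and neither passed. Summed levels of the round spermatid markers given above moved the same way in RS, and in MII they were 4710 to 5430 CPM in KO and 3340 to 4820 CPM in WT, with no call. Elongating spermatid markers summed to 4140 to 5850 CPM in KO MII and 5690 to 7630 CPM in WT MII, with 5 of 10 called lower. Of the markers of body cells in MII, 3 of 10 Leydig and 2 of 13 tested Sertoli markers were called higher in KO, and 2 of 5 tested myoid and muscle markers lower, at sums of 10.8 to 22.5 CPM in KO and 43.1 to 89.4 CPM in WT. Their part in the aldolase values was not tested.

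Pgk2 encodes the autosomal phosphoglycerate kinase that serves germ cells when the X-linked Pgk1 is silenced in meiosis. In RS it was at 1178, 1140 and 1116 CPM in KO and at 866, 924 and 862 CPM in WT. The 6 values did not overlap and were tight within each group. The log2 fold change was 0.37 (SE 0.117), with an edgeR adjusted p of 0.0409 that was close to the threshold. The call was lost in 10 of 20 alternatives: without WT RS replicate 1 (0.193) or 3 (0.155), KO RS replicate 1 (0.151), 2 (0.128) or 3 (0.0774), KO MII replicate 1 (0.0568) or 3 (0.0584), with total-count scaling (0.0717), with no filter (0.0738) and with the replicate number as a block (0.0533). In MII, Pgk2 was at 1050, 1201 and 1042 CPM in KO and at 938, 796 and 979 CPM in WT, with a log2 fold change of 0.28 (SE 0.117) that did not pass (adjusted p = 0.191).

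Ldhc, whose product is the lactate dehydrogenase of sperm, was in RS at 8709, 9066 and 8774 CPM in KO and at 7721, 7556 and 8081 CPM in WT. In MII it was at 8405, 8406 and 8865 CPM in KO and at 7989, 8109 and 7900 CPM in WT. At both stages every KO library was above every WT library, but the differences were small. The log2 fold changes were 0.19 in RS (SE 0.0967, edgeR adjusted p = 0.22) and 0.10 in MII (SE 0.0967, 0.627), and neither passed. In a fit of the 6 RS libraries alone the RS difference passed (0.0425), and it was 0.20 (0.367) without KO RS replicate 1.

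For 4 genes, genotype differences did not pass at either stage in edgeR or in any alternative. Hk1, whose product phosphorylates glucose as it enters the pathway, was at 183, 160 and 189 CPM in KO RS and 230, 211 and 178 CPM in WT RS (log2 fold change -0.22, 95% interval -0.564 to 0.123). In MII it was at 142, 85.4 and 133 CPM in KO and 117, 120 and 126 CPM in WT, where KO replicate 2 stood well below the other libraries. Gapdhs, the glyceraldehyde-3-phosphate dehydrogenase of the sperm tail, was at 309, 268 and 256 CPM in KO RS and 239, 281 and 177 CPM in WT RS (0.26, interval -0.102 to 0.619). Its values in MII were 304, 222 and 220 CPM in KO and 204, 203 and 263 CPM in WT. The groups overlapped at both stages for both of these genes.

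Pgam2, the muscle and testis phosphoglycerate mutase, was at 1129, 1171 and 1069 CPM in KO RS and 1019, 1089 and 1061 CPM in WT RS (0.09, interval -0.17 to 0.346). In MII it was at 1029, 1030 and 1064 CPM in KO and 915, 1120 and 1282 CPM in WT, so that the WT libraries lay on both sides of the KO libraries. Eno4, the enolase-like protein of the sperm tail, was at 90.7, 90.3 and 97.1 CPM in KO RS and 97.96, 97.1 and 101 CPM in WT RS, so that the highest KO library and the lowest WT library were level (-0.09, interval -0.363 to 0.183). In MII it was at 65.5, 66.5 and 75.4 CPM in KO and 72.7, 69.3 and 59.3 CPM in WT, and the groups overlapped. The intervals leave room for changes of either sign in all 4 genes. On leaving out the library labelled KO RS replicate 1, the RS differences were -0.24 for Hk1, 0.17 for Gapdhs, 0.08 for Pgam2 and -0.08 for Eno4.

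The comparison of RS with MII libraries asked how the genes differed between the end of meiosis and the haploid phase. In WT, Hk1, Aldoart1, Aldoart2 and Eno4 were higher in RS, by 1.71-fold, 1.58-fold, 1.76-fold and 1.47-fold, and Slc2a3 was lower, at 0.575 of its MII level. In KO the same 5 genes passed, Hk1, Aldoart1, Aldoart2 and Eno4 at 1.48-fold, 1.5-fold, 1.5-fold and 1.34-fold, and Slc2a3 at 0.284 of its MII level. That is 5 of 9 tested genes in WT (4 higher, 1 lower), against 16.4% of all genes (7.74% higher, 8.68% lower), and 5 of 9 in KO (4 higher, 1 lower), against 12.3% (4.16% higher, 8.17% lower). Of all calls in KO 33.7% were higher in RS, and 23.5% with total-count scaling. The median log2 fold change of the 9 was 0.0548 in WT and 0.161 in KO, beside -0.0294 and -0.0109 over all genes. Gapdhs, Pgk2, Pgam2 and Ldhc did not pass in either genotype or in any alternative, and their log2 fold changes lay between -0.0656 and 0.161. Each library of the genotype comparisons was used again here, so these results and the genotype results are not independent.

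Between RS and MII, Slc2a3 differed by -1.82 on the log2 scale in KO (SE 0.189, edgeR adjusted p = 7.17e-06) and by -0.80 in WT (SE 0.185, 0.00649). Both held in all 20 alternatives, and the groups did not overlap in either genotype. Slc2a3 therefore fell between these stages while the aldolases, Hk1 and Eno4 rose. The WT values for Hk1 (0.77, SE 0.165, 0.00396), Aldoart1 (0.66, SE 0.148, 0.00523) and Aldoart2 (0.82, SE 0.159, 0.00204) also held in all 20, and that for Eno4 (0.56, SE 0.132, 0.00727) in 19. In KO the calls were less stable, and 1 to 3 of the 5 were left without any one of the 6 KO libraries. Over all genes this comparison called 2625, and 1096 to 3286 with any one of the 12 libraries left out. Without KO RS replicate 1 it called 7.7% of all genes. Hk1 in KO (0.56, SE 0.165, 0.0309) was lost with total-count scaling (0.0544) and without KO MII replicate 2 (0.149) or KO RS replicate 1 (0.0901), 2 (0.0597) or 3 (0.0991). Aldoart1 in KO (0.59, SE 0.147, 0.0133) was lost without KO MII replicate 1 (0.0505) or KO RS replicate 2 (0.0767), and Aldoart2 in KO (0.59, SE 0.158, 0.0193) without KO MII replicate 2 (0.072), KO MII replicate 3 (0.0583), KO RS replicate 1 (0.0681) or KO RS replicate 2 (0.0847). Eno4 in KO (0.42, SE 0.131, 0.04) was lost without any one of the 6 KO libraries (0.0587 to 0.128) or WT RS replicate 1 (0.0814), with total-count scaling (0.0842), with no filter (0.0504) and with the replicate number as a block (0.0536). Meiotic division markers were called lower in RS for 2 of 10 in WT and 7 of 10 in KO (5 without KO RS replicate 1). Leydig markers were lower for 9 of 10 in each. Markers of pachytene, an earlier meiotic stage, were lower for 3 of 9 in WT and 5 in KO (3 without that library). Sertoli markers were lower for 4 of 13 tested in WT and 1 in KO (4 without it). Myoid and muscle markers were lower for 4 of 5 tested in WT and 0 in KO (1 without it). Elongating spermatid markers were called higher for 4 of 10 in WT and 1 in KO, and round spermatid markers for 2 of 12 and 3. Without that library none of either list was called in KO. The part of all these markers was not tested.

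The RefSeq promoters (GRCm38.p6) of the genes that rose together from MII to RS are shown with those of 3 that did not, to set their sequences side by side. 8 of the 10 genes had a match in the promoter table, and for Hk1, Gapdhs and Ldhc, which have 2 starts there, the one nearer the 5′ end of the gene is shown. Each line holds the 150 bases before a RefSeq transcription start, 5′ to 3′ on the gene's strand, and capitals mark TGACG (the core of the cyclic AMP response element), TGACATCA (a variant of that element chosen after the windows were read) or CCAAT (the CCAAT box), on either strand.
Hk1, chr10:62379909-62380058, minus: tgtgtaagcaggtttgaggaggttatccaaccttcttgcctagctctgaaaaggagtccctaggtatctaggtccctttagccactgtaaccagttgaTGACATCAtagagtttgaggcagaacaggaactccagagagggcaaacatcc
Aldoart2, chr12:55565055-55565204, plus: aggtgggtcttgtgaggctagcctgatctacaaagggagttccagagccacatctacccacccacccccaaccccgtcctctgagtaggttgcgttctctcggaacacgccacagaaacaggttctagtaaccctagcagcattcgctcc
Eno4, chr19:58943275-58943424, plus: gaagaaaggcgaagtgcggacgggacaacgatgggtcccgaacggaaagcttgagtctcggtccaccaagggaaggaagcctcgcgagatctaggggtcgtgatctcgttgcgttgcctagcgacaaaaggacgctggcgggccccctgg
Gapdhs, chr7:30743682-30743831, minus: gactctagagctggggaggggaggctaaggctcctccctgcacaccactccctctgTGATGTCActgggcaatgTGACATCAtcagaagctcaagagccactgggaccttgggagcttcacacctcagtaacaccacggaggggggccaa
Pgk2, chr17:40208610-40208759, minus: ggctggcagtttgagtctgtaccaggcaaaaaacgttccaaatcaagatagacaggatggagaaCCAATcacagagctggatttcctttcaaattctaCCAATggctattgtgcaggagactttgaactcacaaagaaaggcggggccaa
Ldhc, chr7:46861113-46861262, plus: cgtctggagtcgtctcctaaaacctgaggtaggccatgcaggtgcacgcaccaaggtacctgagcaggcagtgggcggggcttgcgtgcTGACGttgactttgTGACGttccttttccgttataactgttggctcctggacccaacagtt
The search covered 250 bases before each start, of which the lines show the last 150. TGACATCA occurred once in Hk1, its last base 45 bases before the start, and 2 times in Gapdhs, at 87 and 69 bases. It also occurred once in Pgam2, which is not shown, at 218 bases. TGACG occurred 2 times in Ldhc, at 57 and 43 bases. CCAAT occurred 2 times in Pgk2, at 82 and 48 bases, and once each in Pgam2, at 242 bases, and Ldhal6b, at 221 bases. The windows of Aldoart2 and Eno4 held none of these, nor did those of the other starts of Hk1 and Ldhc, while the other start of Gapdhs had TGACATCA at 63 and 45 bases. The complete element TGACGTCA, which contains TGACG, was in no window of the 8 genes. Over 32851 RefSeq windows of the same 250 bases, 2.93% held TGACATCA, 17.8% TGACG, 1.55% TGACGTCA and 33.8% CCAAT on either strand. The variant was thus present both in a gene that rose between the stages (Hk1) and in genes that did not (Gapdhs and Pgam2).

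The share of each step's mRNA that came from the germ cell isozyme was computed per library from counts per kilobase of merged exons. The percentages depend on that length. By counts alone, library shares were 84.1% to 89.4% for Ldhc and 20% to 26.4% for Eno4. The values that follow are per kilobase unless stated. Pgam2 made up 99.9% of phosphoglycerate mutase mRNA in every group mean, Pgk2 99.4% to 99.7% of phosphoglycerate kinase, Gapdhs 97.3% to 98.5% of glyceraldehyde-3-phosphate dehydrogenase and Ldhc 92.0% to 93.6% of lactate dehydrogenase. Hk1, which was added to the germ cell isozymes, made up 89.3% to 93.7% of hexokinase with all its transcript forms counted together. Eno4 was the exception among the enzymes, at 29.3% to 36.0% of enolase; Eno1, the widely expressed enolase, was at 265 to 284 CPM in KO RS and 250 to 261 CPM in WT RS.

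Slc2a3, set against other sugar transporters rather than isozymes of an enzyme, had the share that differed most between groups. It made up 8.27% ± 0.614 of the mRNA of Slc2a1 to Slc2a6 and Slc2a8 in KO RS and 18.0% ± 3.08 in WT RS, and 26.0% ± 1.37 in KO MII and 35% ± 3.36 in WT MII (SD, n = 3 each). KO was below WT at each stage and RS below MII in each genotype without overlap, each at an exact two-sided permutation p of 0.1, the smallest that 3 against 3 can give. The mRNA that Slc2a3 was set against was mostly that of the fructose transporter Slc2a5. Slc2a5 was at 232.6 CPM per kb in KO RS, 252.5 in WT RS, 207.9 in KO MII and 182.7 in WT MII. Slc2a8 was at 8.46, 19.4, 11.2 and 15.6 CPM per kb in the same order, lower in KO as Slc2a3 was. A share among glucose transporters alone was not computed. By counts not divided by exon length, the Slc2a3 share was 14.9% to 17% in KO RS and 27.3% to 36.4% in WT RS. In MII it was then 41.4% to 44.7% in KO and 50.1% to 57.4% in WT. The aldolase retrogenes made up 83.9% ± 0.334 of aldolase in KO RS and 80.4% ± 0.764 in WT RS, and 83.3% ± 1.31 in KO MII and 78.3% ± 2.11 in WT MII (SD, n = 3 each), and KO and WT did not overlap at either stage (exact permutation p = 0.1 each). By counts alone the retrogenes made up 70.7% to 71.6% in KO RS and 64.6% to 66.7% in WT RS. In MII they then made up 68.9% to 72.5% in KO and 61.1% to 66.5% in WT. On leaving out the library labelled KO RS replicate 1, KO minus WT in RS per kilobase was -9.79 percentage points for Slc2a3 and 3.31 for the aldolases, against -9.70 and 3.50 with it. Of the 32 such tests, for 8 steps and 4 comparisons, none could pass the threshold with 3 libraries per group, and the smallest adjusted p was 0.291.

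**Figure D3:**
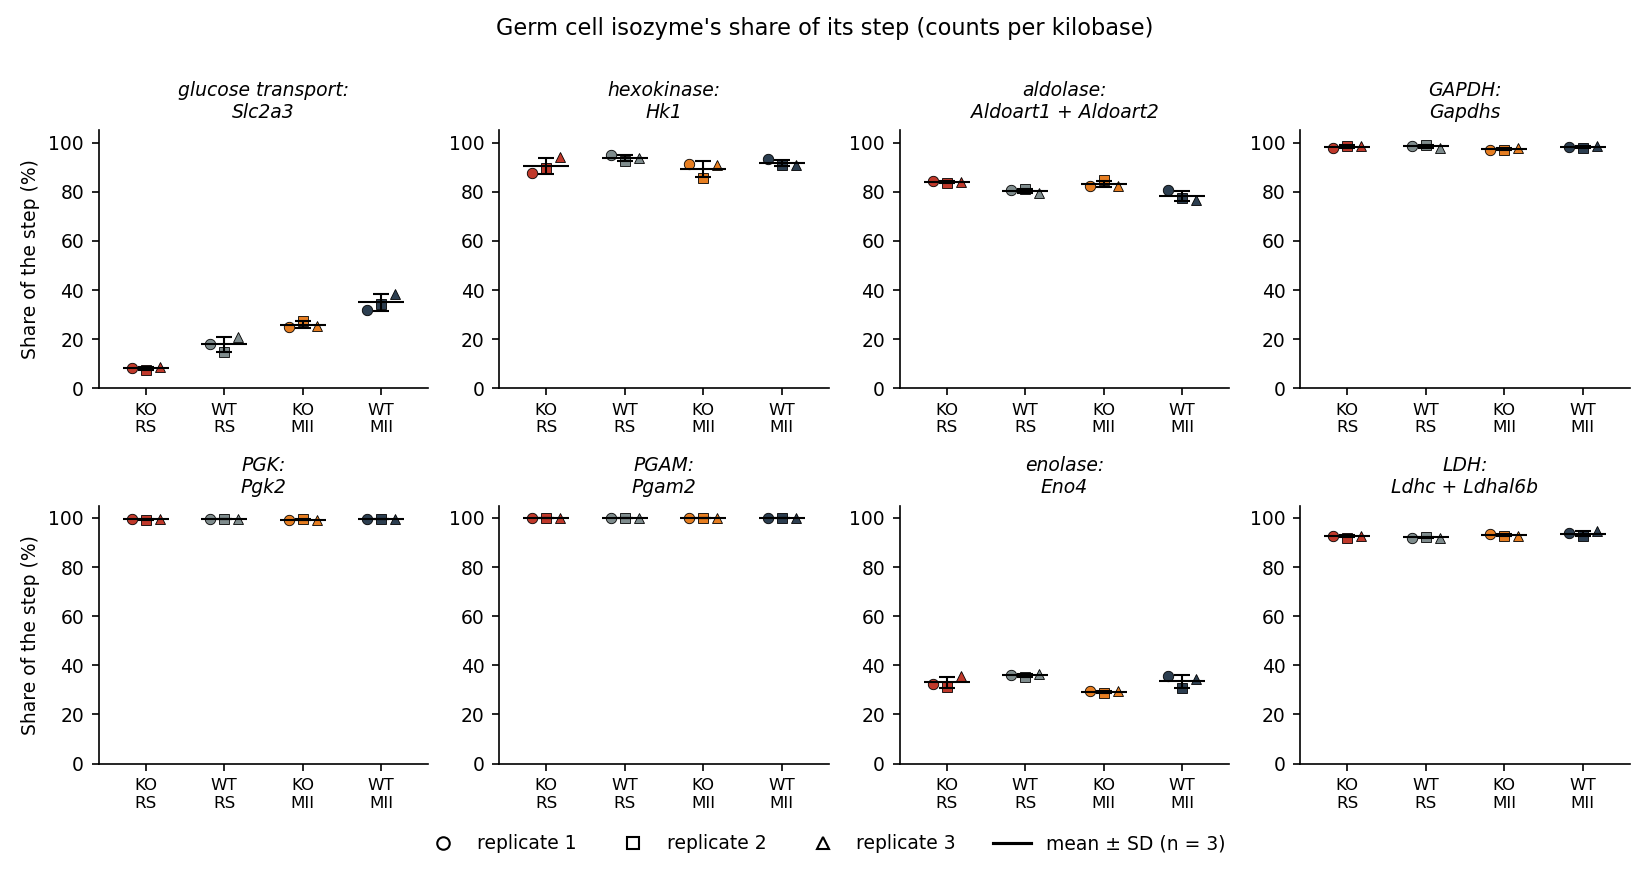
Share of a glycolytic step's counts per kilobase that came from the germ cell isozyme, from Hk1 or from Slc2a3 (vertical axis, percent, from 0) in the 4 groups (horizontal axis), with 1 point per library and lines at the mean ± SD of 3 libraries. Slc2a3 is set against other sugar transporters, the fructose transporter Slc2a5 among them. The share of Slc2a3 steps up through KO RS, WT RS, KO MII and WT MII, while Pgk2 and Pgam2 stay above 99% in each group mean.

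The rest of the pathway was followed in 4 gene lists. Among other sugar transporters, of which 6 of 11 were tested, 1 passed in RS (16.7%, against 13.4% of all genes). Slc2a8 (GLUT8, an intracellular glucose transporter abundant in testis) fell. It was at 21.5, 26.7 and 33.2 CPM in KO and at 59.5, 49.4 and 77.5 CPM in WT, a difference of -1.20 on the log2 scale (SE 0.248, edgeR adjusted p = 0.00449) that held in all 20 alternatives. No transporter of the list rose in RS, and in MII none passed in edgeR, DESeq2 or limma-voom (0 at an unadjusted p under 0.05), the smallest adjusted p being that of Slc2a8 (-0.48, 0.294). Slc2a5 (GLUT5, the fructose transporter), the most abundant other transporter, was at 738, 801 and 836 CPM in KO RS and at 851, 786 and 940 CPM in WT RS, and these values overlapped.

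Among regulators and side branches (19 of 22 tested), 5 passed in RS (4 higher, 1 lower), which is 26.3%, against 13.4% of all genes. Pfkfb4, the testis form of the enzyme that makes and removes fructose 2,6-bisphosphate, the activator of phosphofructokinase, fell. It was at 5.92, 7.09 and 7.20 CPM in KO RS and at 14.99, 17.5 and 14.4 CPM in WT RS, a difference of -1.22 on the log2 scale (SE 0.194, edgeR adjusted p = 0.000675), called in all 20 alternatives. Pfkfb1, its liver and muscle counterpart, rose (0.78, adjusted p = 0.0127), as did Pgm2, a sugar phosphate mutase (1.14, 0.0191), G6pd2, an intronless glucose-6-phosphate dehydrogenase of germ cells (0.78, 0.0191), and Gykl1, a glycerol kinase of germ cells (0.43, 0.0214). Without the library labelled KO RS replicate 1 these 4 were not called (0.0887, 0.105, 0.0653 and 0.0803), nor without WT RS replicate 3 (0.0538, 0.1, 0.118 and 0.0866). Without KO RS replicate 2 the calls of Pfkfb1 (0.0512), G6pd2 (0.0953) and Gykl1 (0.102) were lost, and without WT RS replicate 1 those of G6pd2 (0.0612) and Gykl1 (0.118).

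**Figure D4:**
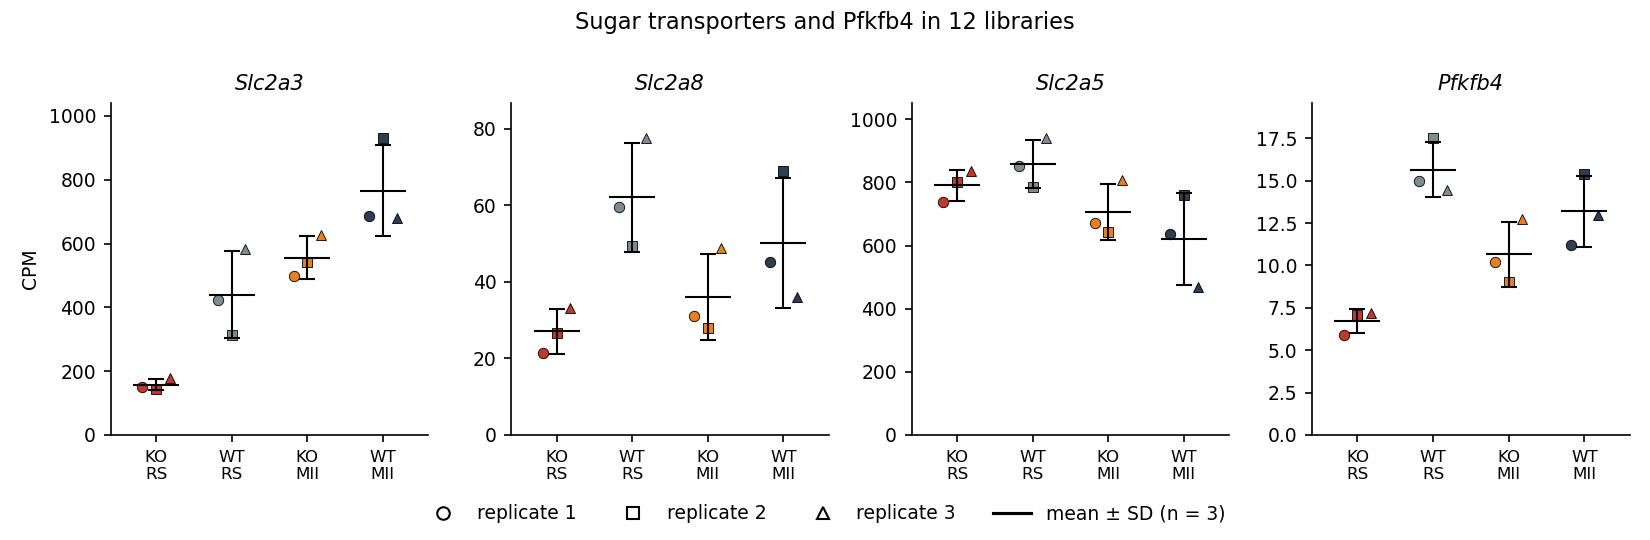
Level (vertical axis, CPM with TMM-scaled library sizes, from 0, a scale per gene) of the sugar transporters Slc2a3, Slc2a8 and Slc2a5 and of the regulator Pfkfb4 in the 4 groups (horizontal axis), with 1 point per library and lines at the mean ± SD of 3 libraries. In RS, KO libraries lie below WT libraries without overlap for Slc2a3, Slc2a8 and Pfkfb4, and overlap for Slc2a5.

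Among glycolytic isozymes outside the 10 genes (19 of 23 tested), 3 rose in RS and none fell, which is 15.8% called, near the 13.4% of all genes. Pgk1 was at 9.58, 10.8 and 6.95 CPM in KO RS and at 3.98, 4.28 and 3.59 CPM in WT RS (log2 fold change 1.20, SE 0.232, edgeR adjusted p = 0.00296, called in all 20 alternatives). Ldhb, a lactate dehydrogenase of heart and other tissues, was at 11.2, 2.36 and 2.03 CPM in KO RS and at 0.229, 0.310 and 0.412 CPM in WT RS (4.05, SE 0.753, 0.00519), and the log2 fold change was 2.80 (0.00167) with the library labelled KO RS replicate 1 left out. Hk2, the muscle and fat hexokinase, was at 3.73, 0.788 and 0.847 CPM in KO RS and at 0.401, 0.372 and 0.674 CPM in WT RS (1.91, SE 0.612, 0.0445). Without KO RS replicate 1 it was at 0.77 (0.494), and its call was also lost without any one WT RS library (0.0842 to 0.145) or KO MII replicate 2 (0.0535) or 3 (0.0512). The library labelled KO RS replicate 1 had the highest levels of Ldhb and Hk2 in RS. It also had the most Sertoli marker mRNA there (288 CPM, against 43.1 to 68.6 CPM in KO RS replicates 2 and 3). In RS, 9 of 13 tested Sertoli and 5 of 10 Leydig markers were called higher in KO and 0 lower. Without that library 4 and 1 were called higher. The part of RNA from body cells in Pgk1, Ldhb, Hk2 or the other listed genes was not tested.

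Among genes of lactate and pyruvate transport and pyruvate dehydrogenase (18 of 20 tested), 3 rose in RS and none fell: Pdk3, a kinase that switches pyruvate dehydrogenase off (log2 fold change 0.64, edgeR adjusted p = 0.0107), Pdp1, the phosphatase that switches it on (0.62, 0.014), and Slc16a7, the lactate and pyruvate transporter MCT2 (0.54, 0.0197). That is 16.7% called, near the 13.4% of all genes. Slc16a7 was at 1039, 1078 and 937 CPM in KO RS and at 697, 819 and 590 CPM in WT RS. The calls of Pdk3, Pdp1 and Slc16a7 were lost on leaving out the library labelled KO RS replicate 1 (0.0588, 0.0506 and 0.0764), or without KO RS replicate 2 (0.052, 0.0578 and 0.0973) or WT RS replicate 3 (0.0751, 0.0909 and 0.134), and those of Pdk3 and Slc16a7 without WT RS replicate 1 (0.0648 and 0.0921).

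In MII, 4 of the 62 tested genes of these lists passed, against 3.68% of all genes (1.83% higher), and all 4 were higher in KO. Pgk1 was at 10.3, 9.44 and 9.54 CPM in KO and at 3.91, 3.78 and 6.30 CPM in WT (log2 fold change 1.05, SE 0.233, edgeR adjusted p = 0.0197), and leaving out WT MII replicate 1 (0.0546) or KO MII replicates 1 (0.0743) or 2 (0.07) ended the call. Pdk3 (0.59, 0.0396), G6pd2 (0.79, 0.0436) and Gpd2, the mitochondrial glycerol-3-phosphate dehydrogenase (0.56, 0.0436), were called in no more than 3 of the 12 fits that left out a library, the calls holding without WT MII replicate 1, WT RS replicate 2 or WT RS replicate 3. Of the difference in KO effect between the stages, none of the 62 listed genes tested passed in edgeR, DESeq2 or limma-voom, with 1 at an unadjusted p under 0.05 (Pfkfb4, -0.90, adjusted p = 0.735).

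Between stages in WT, 7 of the 19 tested isozymes outside the 10 genes passed (5 higher, 2 lower in RS), which is 36.8%, against 16.4% of all genes. Aldoa, the parent of the aldolase retrogenes, rose (log2 fold change 0.62, edgeR adjusted p = 0.00769), as did Gpi1, the glucose-6-phosphate isomerase (0.73, 0.00897), and the pyruvate kinase Pkm (0.80, 0.01), while the brain aldolase Aldoc, at 0.0748 to 0.186 CPM in RS and 0.890 to 1.40 CPM in MII, fell (-3.07, 0.00329). The call of Gpi1 was lost without WT RS replicate 2 (0.0591), and that of Pkm without WT RS replicate 2 (0.0685) or WT MII replicate 3 (0.0554). In KO, 3 of the 19 passed (15.8%, against 12.3% of all genes): Aldoa (0.53, 0.0234), Tpi1, the triose phosphate isomerase (0.49, 0.0168), and Aldoc (-2.21, 0.0235). Pdk2, a second pyruvate dehydrogenase kinase, was higher in RS in both genotypes (0.72, 0.017 in KO; 1.13, 0.00067 in WT), and so was G6pd2 (0.81, 0.0157 in KO; 0.81, 0.0126 in WT). The KO calls were lost, at adjusted p-values of 0.051 to 0.119, without KO RS replicate 2 for all 5 of these genes, without KO RS replicate 1 for Aldoa and Tpi1 and KO RS replicate 3 for Pdk2, without KO MII replicate 1 for Tpi1, Aldoc, Pdk2 and G6pd2, without KO MII replicate 2 for Aldoa, Tpi1 and Pdk2, and without KO MII replicate 3 for G6pd2, and the WT call of G6pd2 without WT RS replicate 2 (0.0689) or WT MII replicate 3 (0.0698).

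For 8 of the tested genes, the gene outside the group whose log2 CPM followed it most closely over the 12 libraries was found among 8352 genes, as a description of libraries that share group and depth. Genes with symbols of the forms Gm and a number, Rik, pseudogene, related sequence or accession were left out of the search, so a closer follower among them would be missed. Slc2a3 was followed by Atxn7l3b (Pearson r = 0.996), which in RS was at 126, 120 and 142 CPM in KO and 250, 197 and 323 CPM in WT. Aldoart1 was followed by Slc22a14, a member of the organic ion transporter family (0.997), Aldoart2 by Sec24b, a coat protein of secretory vesicles (0.989), and Pgk2 by Gykl1 (0.983). The rest were Scp2 for Eno4 (0.98), Foxj1, a ciliary transcription factor, for Hk1 (0.966), St6galnac2 for Gapdhs (0.965) and Sgca for Pgam2 (0.897). Within the group, Aldoart1 and Aldoart2 had an r of 0.982, Hk1 and Eno4 of 0.835 and Pgk2 and Ldhc of 0.719, while Slc2a3 ran against all others, most against Aldoart1 (-0.891) and least against Pgam2 (-0.222).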

How the data were processed

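Polyadenylated RNA of sorted MII spermatocytes and round spermatids was measured in 12 libraries, 3 per group. Counts of whole numbers for each gene, with exon coordinates and lengths, were deposited by the authors in 1 table and used as they stand. Per the submitters' processing notes, the build was mm10 and the tools were featureCounts 2.0.2, STAR 2.7.10a, Trim Galore 0.6.7 and DESeq2. The sources used here give neither their settings nor the annotation release or the strand setting.

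Of 37839 genes with a count, 21291 were kept by filterByExpr in edgeR (minimum count 10 and total 15). They were scaled by TMM and tested with edgeR 4.0.16 (quasi-likelihood F test, robust) under R 4.3.3, in 1 fit of all 12 libraries with a mean per group and 8 residual degrees of freedom. The 5 comparisons were KO against WT in RS and in MII, the difference of these effects, and RS against MII in WT and in KO. Benjamini-Hochberg adjustment ran over all tested genes, with calls at an adjusted p under 0.05. The SE is the log2 fold change over the square root of F. The biological coefficient of variation was 22.28%.

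The genes and the 4 pathway lists were chosen with earlier results of these data known. Named were the 10 genes, from each list and comparison at most the 4 called genes with the smallest adjusted p (Gykl1 was added after its value was seen, as the fifth), or the 1 with the smallest where none was called, and the closest follower of each gene with a mean of at least 5 CPM (prior count 2 on the log2 scale). From the lists, not every gene named by this rule is given. The closest follower of Ldhc is not reported here.

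Alternatives were DESeq2's size factors, total-count scaling, the tests of DESeq2 1.42.0 and limma-voom (limma 3.58.1), a filter of 5 CPM in 3 libraries or none, a fit of only the 6 libraries compared, the replicate number as a block, and each library left out. A fit without the libraries labelled KO RS replicate 1 and KO MII replicate 1 was added after the data were seen. No 2 libraries of a group agreed within sampling noise. Windows of 150 transcript bases were compared in GENCODE M21, and promoters were taken from RefSeq.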

Additional observations from a re-analysis of the deposited data

How the results depend on the processing

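Over the 9 tested genes and 5 comparisons, every called log2 fold change kept its direction in all alternatives run. The counts of called genes did not all hold. KO against WT in MII called 2 genes, but 1 with total-count scaling, 0 in a fit of only the 6 libraries compared, 0 to 2 with a library left out, and 0 without the libraries labelled KO RS replicate 1 and KO MII replicate 1 together. KO against WT in RS called 3, but 1 with total-count scaling, 5 in the fit of 6 libraries, 1 to 4 with a library left out, and 1 (Slc2a3) without that pair. The difference of the KO effects called 0, and 1 (Slc2a3, adjusted p = 0.00261) with no filter on low counts. RS against MII in KO called 5, but 3 with total-count scaling, 1 to 5 with a library left out and 1 without the pair; in WT it called 5, and 4 in the fit of 6 libraries. The cause was not tested, except that fits of fewer libraries estimate the spread from fewer values.

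Values that changed sign were all uncalled. For KO against WT in MII they were Gapdhs (-0.0411 to 0.287 with a library left out, -0.0397 without the pair), Pgam2 (-0.22 to 0.0323), Hk1 (-0.171 to 0.183, and 0.0126 with no filter) and Eno4 (-0.0374 to 0.0912). For the difference they were Gapdhs (-0.0489 to 0.289) and Aldoart1 (-0.205 to 0.0543). For RS against MII in WT they were Gapdhs (-0.105 to 0.227), Pgk2 (-0.0903 to 0.028, and 0.0272 with no filter), Pgam2 (-0.171 to 0.0543) and Ldhc (0.0167 with no filter), and in KO Ldhc (-0.00161 with total-count scaling).

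Genes called over all 21291 ranged with a library left out from 147 to 976 for KO against WT in MII (784 in the fit reported) and from 1080 to 3573 in RS (2863), and DESeq2 called 1495 and 3706. No filter gave 1440 in MII, and the fit of the 6 MII libraries 403. For RS against MII, the range with a library left out was 1096 to 3286 in KO (2625 in the fit reported) and 1776 to 3980 in WT (3497). Total-count scaling moved the median log2 fold change of all genes by less than 0.1.

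The labels do not say whether same-numbered libraries of 2 groups stem from the same mice. Such libraries had correlations of their deviations from -0.203 to 0.287, and in no comparison were all 3 above 0.1. For RS against MII in KO all 3 were positive (0.287, 0.0836 and 0.155). A pairing of the KO libraries is therefore not settled, and the main fit used none. With the number as a replicate block, 3 genes were called for KO against WT in RS, where Pgk2 was lost (0.0533) and Aldoart2 gained (0.0377), 2 in MII, 0 for the difference, 4 for RS against MII in KO, where Eno4 was lost (0.0536), and 5 in WT.

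Exact permutation tests of 3 against 3 cannot go below 0.1, and the depth behind low genes such as Hk2 and Aldoc leaves wide intervals.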
